A study of Mytilus galloprovincialis with 18 samples.

Results

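Byssal precollagens were represented on the mussel cDNA array by 8 of its 1920 probe IDs. They were found by searching the descriptions in the study's probe tables for the words precollagen, precol or byssal, and those tables describe 434 of the 1920 probes. By description, 2 probes were precollagen-D (Myt01-011H08 and Myt01-015G12), 3 were precollagen-P (Myt01-003F09, Myt01-011B06 and Myt01-014D10), 2 were precollagen-NG (Myt01-006A11 and Myt01-008B04), and 1 was a nongradient byssal precursor named after Mytilus edulis (Myt01-013C05). A description is the best match of a probe's cDNA to a known sequence, so several probes with the same name may or may not report the same transcript. Other byssal transcripts may lie among the probes with no description here.

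The byssus is the bundle of threads by which a mussel holds to a surface. Its threads are moulded by glands of the foot from collagens called precollagens (preCols), in which a central collagen domain is flanked by domains resembling silk in preCol-D, elastin in preCol-P and glycine-rich proteins in preCol-NG. PreCol-D is richest in the distal part of a thread, preCol-P in the proximal part near the animal, and preCol-NG runs along the whole thread with no gradient. The ends of the molecules are rich in histidine, an amino acid that coordinates metal ions. The tissue measured here was gill, a ciliated organ that pumps water and is not a known site of thread formation.

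Gills came from adult Mytilus galloprovincialis of mixed sex, taken from an offshore farm. Mussels spent 48 h in sea water with equal molar amounts of cadmium, copper and mercury chlorides, each group at one of 3 doses, 50, 100 or 200 nM, and RNA of 3 individual mussels a dose was hybridised against RNA pooled from 5 control mussels kept without metals. Each mussel was measured on 2 arrays with exchanged dyes (array A with the pool in Cy5, array B with the pool in Cy3), giving 18 arrays of 3840 spots, 2 a probe. Each dose was 1 tank, so dose and tank cannot be told apart, and the pool is 1 control sample, so the p-values below measure the spread among mussels within tanks and leave out that among control mussels. A log2 ratio of 0 means equal signal in mussel and pool.

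The study drew up its tables by selecting, at each dose, probes that stood apart from 0 in these same mussels. The 8 probes were therefore chosen by their own values at 12 of the 24 combinations of probe and dose: 1 of 8 at 50 nM, 6 of 8 at 100 nM and 5 of 8 at 200 nM. For those 12 combinations the values are a description and carry no test here. The other 12 combinations, and the 4 dose pairs in which a probe was listed at neither dose, were tested with limma over all 1920 probes. These too were set apart by the study's selection, which passed over the probe there in the same mussels, so a low count of calls among them was largely fixed beforehand and the tests serve mainly to give each value its interval. The same pool enters every value.

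Median spot intensity was 361 to 1334 in the mussel channel and 245 to 2787.5 in the pool channel. The mussel numbered 3 at 50 nM stood apart. Its arrays correlated with those of the other mussels at a mean r of -0.145 (arrays A) and -0.139 (arrays B) across probes, where the other mussels correlated with each other at 0.200 and 0.238, and the lowest of its correlations was -0.314. The file headers give its ratio the same direction as the rest, but since its direction is not settled by its values, 50 nM results are also given with its sign turned and without it. Header lines of 2 arrays of the 100 nM mussels 1 and 2 name their control image differently from the rest.

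In the control pool, all of the 36 spots (2 on each of 18 arrays) were brighter than local background by over 2 background SD for 7 of the probes, and 35 were for Myt01-008B04. This threshold was passed by 99.1% of all pool spots and separates little. The share was lowest, 89.3%, on array A of mussel 2 at 100 nM, which also had the highest pool median (2787.5). That array enters the reading of this mussel for all 8 probes. Each probe's own ratio of intensity to background says more. The preCol-NG probe Myt01-006A11 gave a median of 51574.5 scanner units over the 18 arrays, with a range of 3492.5 to 65535, and a median intensity of 188 times its background. It was brighter than a median of 99.5% of the probes on its array, and 12 of its 36 pool spots were at the scanner limit. The preCol-P probe Myt01-014D10 had a median intensity of 3586.25 (231 to 9342.5), which was 11.6 times background. These probes were the brightest of the 8, and the mean pool intensity of Myt01-006A11 was above 80% of the scanner limit on 9 of 18 arrays.

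The other 6 probes were far dimmer. The preCol-D probes Myt01-011H08 and Myt01-015G12 had median pool intensities of 1499 (218.5 to 8306) and 1372.75 (584.5 to 3415), 5.71 and 5.15 times background. For the nongradient precursor Myt01-013C05 the median was 914 (163.5 to 13165.5), or 3.20 times background. The preCol-NG probe Myt01-008B04 and the preCol-P probe Myt01-011B06 had 890.25 (204 to 14578.5) and 897.75 (230 to 2294.5), and the preCol-P probe Myt01-003F09 had the lowest median, 708.25 (166.5 to 3561), at 3.45, 2.94 and 2.46 times background. The median over all 1920 probes of this ratio was 3.18, so 4 of the 8 lay close to or below the middle of the array. Spot brightness also depends on the length and amount of printed cDNA and on cross-hybridisation, and does not rank these transcripts by abundance. Even 2 probes of the same name differed. For both Myt01-006A11 and Myt01-008B04 the best match is an entry titled as the complete preCol-NG coding sequence. That title describes the matched entry and not the printed cDNA.

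**Figure D1:**
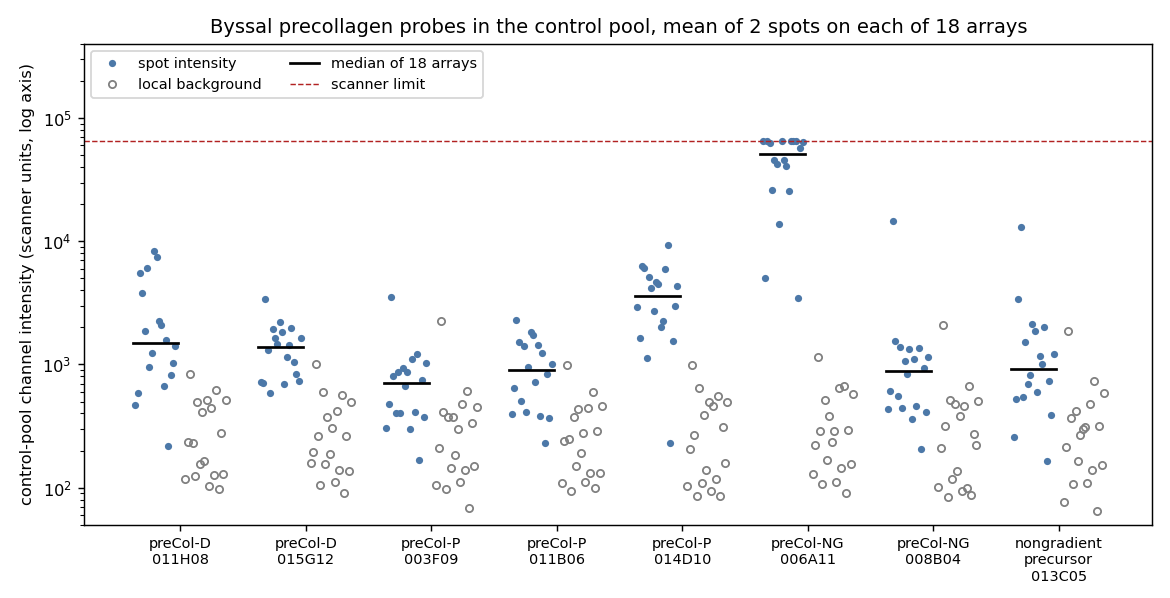
Intensity of the 8 byssal probes in the control-pool channel (scanner units, log axis), one filled point for each of 18 arrays (mean of 2 spots), with the median as a black bar and the local background as open points. Myt01-006A11 sat near the scanner limit (median 51574.5), while the medians of the other 7 probes lay between 708.25 and 3586.25.

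Defining proteins of the foot were looked for in the same gill RNA, since byssal transcripts could come with foot tissue. The 2 described probes of this kind both gave signal in the pool. The foot protein 3 probe Myt01-018B12, for an adhesive plaque protein, had a median intensity of 33291.8, 94.9 times background, and the polyphenolic adhesive protein probe Myt01-007H03, for a DOPA-rich adhesive, had 1834.75, 5.19 times background. The mean log2 ratio of these 2 probes was between -0.057 and 0.20 in the mussels of 50 nM, between -0.21 and -0.0062 at 100 nM and between -0.47 and -0.064 at 200 nM. Both were listed by the study at 200 nM, so their values there are a description. At that dose Myt01-007H03 read below the pool in 3 of 3 mussels (-0.82, -0.31 and -0.46) and Myt01-018B12 stood at -0.13, 0.18 and 0.069. The part of foot tissue in the results below was not tested, and in a bulk sample fewer cells of a type and less RNA per cell cannot be told apart.

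Over all probes limma called 0% at 50 nM, 0% at 100 nM and 2.03% at 200 nM (39 of 1920, 0.885% higher and 1.15% lower) at an adjusted p under 0.05. At an unadjusted p under 0.05 these shares were 3.75%, 9.53% and 18.1%. Among the 12 byssal tests at doses where a probe was not listed, 0 passed after adjustment and 0 had an unadjusted p under 0.05. As the study had passed over these combinations in the same mussels, nothing is read from that count against the shares over all probes. The counts at 200 nM turned on single mussels and on the processing, as the closing paragraphs give.

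The 8 means lay on both sides of 0 at every dose. At 100 nM 4 of the 8 were above 0 and at 200 nM 3 of 8, where 974 and 883 of all 1920 probes were, and the medians of the 8 were 0.099 and -0.33, against 0.0042 and -0.022 over all probes. Most of these values chose the probes (6 of 8 at 100 nM and 5 of 8 at 200 nM), so the counts are a description. At 50 nM the median of the 8 was -0.0011. Probes whose 3 mussels shared a sign numbered 3 of 8 at 50 nM, 5 of 8 at 100 nM and 5 of 8 at 200 nM, and over all probes 19.8%, 35.5% and 42.4% did so. As the listing selected for this, the counts at listed doses say nothing further: of the unlisted combinations, 2 of 7, 1 of 2 and 0 of 3 had a common sign.

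**Figure D2:**
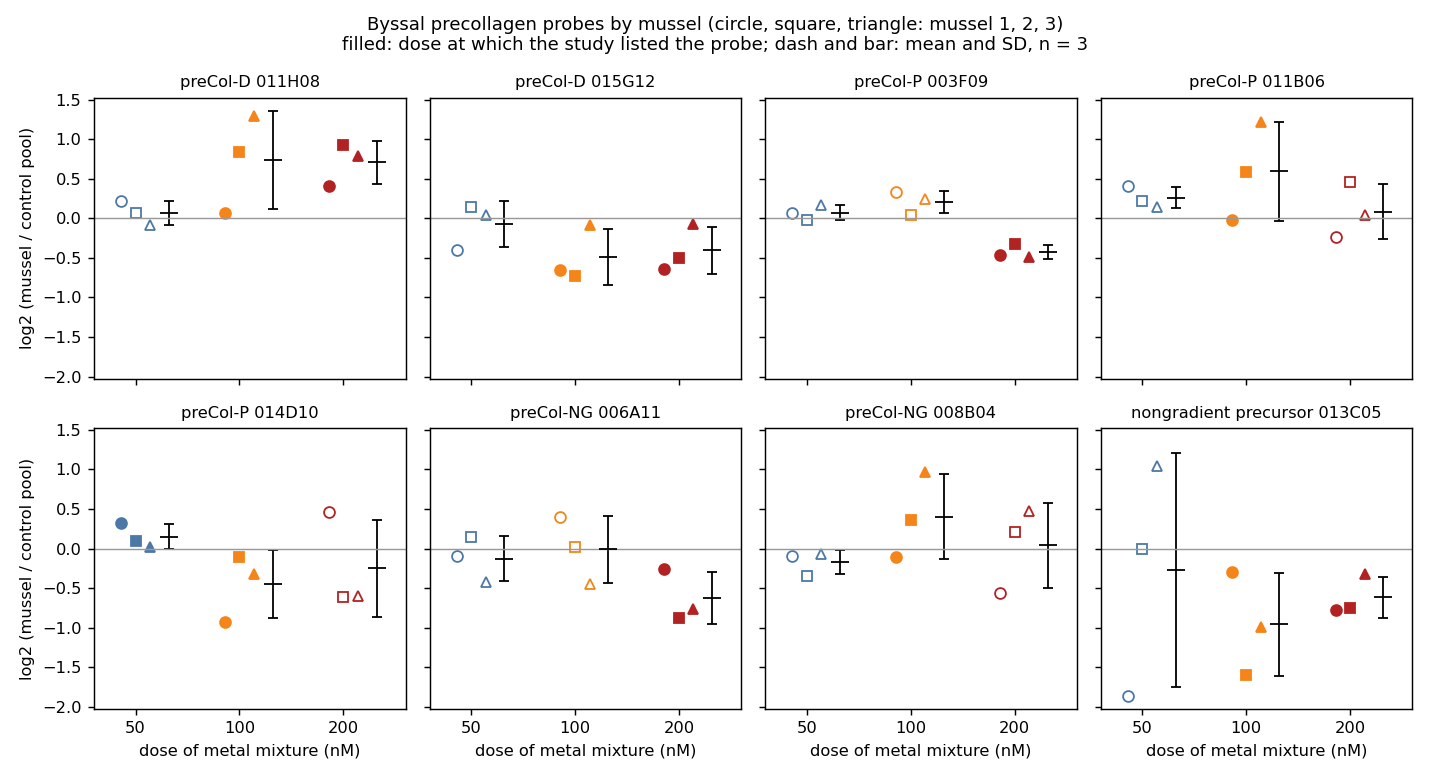
log2 ratio of mussel to control pool for each of the 8 byssal probes at 50, 100 and 200 nM, 1 symbol for each mussel, filled where the study listed the probe at that dose, with the mean and SD (n = 3). The 2 preCol-D probes lay on opposite sides of 0 at 200 nM (means 0.71 and -0.41), and the nongradient precursor spread from -1.86 to 1.05 at 50 nM.

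The 2 preCol-D probes parted at the higher doses. Myt01-011H08 read 0.22, 0.067 and -0.079 in the 3 mussels of 50 nM. At 100 nM, where the study listed it, it read 0.066, 0.84 and 1.30, with a mean of 0.73 ± 0.62 (SD, n = 3), 1.66-fold over the pool. At 200 nM, again listed, it read 0.41, 0.93 and 0.79, a mean of 0.71 ± 0.27 (SD, n = 3), 1.63-fold over the pool. All 3 mussels of 200 nM lay above all 3 of 50 nM, while the 100 nM group held both the highest mussel of the probe and a mussel next to 0. The only value open to a test was that at 50 nM, 0.071 with a 95% interval of -0.37 to 0.51 (limma, adjusted p = 0.99).

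Myt01-015G12, the other preCol-D probe, read -0.40, 0.14 and 0.047 at 50 nM. It read -0.65, -0.73 and -0.084 at 100 nM (mean -0.49 ± 0.35, SD, n = 3) and -0.64, -0.51 and -0.076 at 200 nM (mean -0.41 ± 0.29), both listed doses. All 6 of these mussels were below the pool, and in each dose mussel 3 was close to 0. At the higher doses this was an average of opposite readings, -0.31 and 0.14 on arrays A and B at 100 nM and -0.51 and 0.36 at 200 nM. The doses overlapped. At 50 nM the mean was -0.071 with a 95% interval of -0.45 to 0.31 (limma, adjusted p = 0.99). Within a mussel, Myt01-011H08 exceeded Myt01-015G12 by 0.72, 1.57 and 1.38 at 100 nM and by 1.04, 1.44 and 0.86 at 200 nM, but in only 1 of 3 mussels at 50 nM. The separation at the higher doses was in part fixed by the listing, which took in both probes at both doses.

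Among the 3 preCol-P probes, no dose had all on the same side of 0 except 50 nM, where all 3 means were slightly positive. Myt01-011B06 read 0.41, 0.22 and 0.15 at 50 nM, all above the pool (mean 0.26, 95% interval -0.20 to 0.72, limma, adjusted p = 0.99). At the listed dose of 100 nM it read -0.021, 0.58 and 1.22, a mean of 0.59 ± 0.62 (SD, n = 3) that spanned no change to more than a doubling of signal. At 200 nM it read -0.24, 0.46 and 0.038 (mean 0.085, 95% interval -0.37 to 0.54, adjusted p = 0.89). The difference between 200 and 50 nM was -0.18 with a 95% interval of -0.82 to 0.47 (limma, adjusted p = 0.87), and no dose stood clear of another.

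Myt01-003F09 was the steadiest probe between mussels. It read 0.066, -0.023 and 0.16 at 50 nM and 0.33, 0.047 and 0.25 at 100 nM, then -0.46, -0.32 and -0.49 at 200 nM, the dose where it was listed (mean -0.43 ± 0.091, SD, n = 3, 0.744 of the pool). The 200 nM mussels lay below all 6 others. At 100 nM its mean of 0.21 had a 95% interval of -0.060 to 0.47 (limma, adjusted p = 0.58), and it differed from 50 nM by 0.14 (-0.24 to 0.52, adjusted p = 1.00). Its pooled SD within doses, 0.112, was smaller than that of all but 2.08% of the probes. This steadiness did not extend to the 2 arrays of a mussel, as described below.

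Myt01-014D10 changed sides between doses. It read 0.32, 0.095 and 0.024 at 50 nM and -0.92, -0.10 and -0.32 at 100 nM, both listed doses, with means of 0.15 ± 0.16 and -0.45 ± 0.43 (SD, n = 3), and the mussels of these doses did not overlap. At 200 nM, where it was not listed, mussel 1 read 0.46 and the other mussels -0.61 and -0.60. The mean there was -0.25 with a 95% interval of -0.73 to 0.22 (limma, adjusted p = 0.63). Each of the groups at 100 and 200 nM held 1 mussel far from the other pair.

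Of the 24 dose pairs over the 8 probes, 4 did not overlap, those of Myt01-003F09 at 200 nM against 50 and 100 nM, of Myt01-011H08 at 200 against 50 nM and of Myt01-014D10 at 100 against 50 nM. Over all probes 8.23% did not overlap between 50 and 100 nM, 15.1% between 50 and 200 nM and 14.2% between 100 and 200 nM. Each of the 4 pairs holds a listed dose. Of the 4 pairs with no listed dose, 0 were free of overlap and 0 passed the test, which the study's selection made likely and from which nothing is read. For reference, limma called 0% of all probes at adjusted p under 0.05 for each of these dose pairs, and 4.43% (100 against 50 nM) and 10.2% (200 against 50 nM) at an unadjusted p under 0.05.

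The preCol-NG probes also ran apart. Myt01-006A11, the very bright probe, read -0.098, 0.14 and -0.43 at 50 nM and 0.40, 0.015 and -0.45 at 100 nM, so each group straddled the pool. At 200 nM, where it was listed, it read -0.26, -0.87 and -0.76, a mean of -0.63 ± 0.33 (SD, n = 3), 0.647 of the pool. The means at 50 and 100 nM were -0.13 (95% interval -0.53 to 0.28) and -0.0095 (-0.42 to 0.40), neither called by limma (adjusted p = 0.99 for both). The 2 doses differed by 0.12 (-0.46 to 0.69, adjusted p = 1.00).

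For this probe 14 of 36 spots were saturated in one channel or the other, which pulls a ratio towards 0 where both channels reach the limit. All 4 spots of mussel 1 at 50 nM were affected. With saturated spots left out, an alternative chosen after seeing the data, mussel 2 at 100 nM moved from 0.015 to -0.40 and its dose mean to -0.12, while mussel 2 at 200 nM moved from -0.87 to -0.85 and the mean there to -0.62. At 200 nM 0, 2 and 0 of 4 spots were saturated in mussels 1, 2 and 3, so leaving them out could move that mean little. The part of saturation, and of spots near the scanner limit, in these values was not tested.

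Myt01-008B04, dimmer by far, read -0.088, -0.34 and -0.071 at 50 nM (mean -0.17, 95% interval -0.65 to 0.31, limma, adjusted p = 0.99). It read -0.11, 0.36 and 0.97 at 100 nM, its listed dose, a mean of 0.40 ± 0.54 (SD, n = 3), and -0.56, 0.20 and 0.47 at 200 nM (mean 0.039, 95% interval -0.44 to 0.52, adjusted p = 0.94). Mussel 1 was the lowest at both doses. The difference of 200 from 50 nM was 0.21 (-0.47 to 0.89, limma, adjusted p = 0.86).

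Myt01-013C05, the nongradient precursor, which the study's tables place in a motility and trafficking category rather than with the matrix proteins, was the most variable. At 50 nM it read -1.86, -0.0032 and 1.05, a wide range on both sides of the pool, with a mean of -0.27 and a 95% interval of -1.17 to 0.63 (limma, adjusted p = 0.99). Turning the sign of mussel 3 gave a mean of -0.97 and leaving it out gave -0.93, and leaving out mussel 1 gave 0.52. At the listed doses it read -0.29, -1.59 and -0.99 at 100 nM (mean -0.96 ± 0.65, SD, n = 3) and -0.78, -0.75 and -0.32 at 200 nM (mean -0.62 ± 0.26). Its pooled SD within doses was 0.943, above that of 98.7% of the probes, for which the median was 0.287. The 6 mussels of the higher doses were all below the pool. In mussel 2 at 100 nM, arrays A and B read -0.98 and -2.21. On that array B the pool signal of the probe was 13165.5, against a median of 914 over the 18 arrays. That array is among those whose header names the control image differently. The part of this array in the mean was not tested.

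For the other 50 nM means, turning mussel 3 moved Myt01-003F09 from 0.069 to -0.041 and Myt01-006A11 from -0.13 to 0.16, and left the remaining 5 probes on their side of 0. None of the 7 unlisted probes was called at 50 nM by limma with the sign as given, turned or with the mussel left out.

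The 2 arrays of a mussel, which carry the same RNAs with exchanged dyes, were compared for each probe. Over the 72 combinations of probe and mussel, A and B had the same sign in 52. The correlation between A and B over the 9 mussels was 0.85 for Myt01-014D10, 0.80 for Myt01-011H08, 0.77 for Myt01-013C05, 0.63 for Myt01-006A11 and 0.58 for Myt01-015G12. It was 0.37 for Myt01-011B06, 0.34 for Myt01-008B04 and -0.18 for Myt01-003F09. The median over all 1920 probes was 0.16. This r rises with the spread between mussels and is no measure of precision. The median absolute difference between A and B ordered the probes otherwise. It was 0.17 for Myt01-015G12, 0.18 for Myt01-008B04, 0.19 for Myt01-006A11, 0.24 for Myt01-014D10 and 0.25 for Myt01-011H08. For Myt01-003F09, Myt01-013C05 and Myt01-011B06 it was 0.40, 0.47 and 0.52, where the median over all probes was 0.34. The wide spread of Myt01-013C05 at 50 nM was seen on both arrays, which gave -1.63 and -2.10 in mussel 1 and 0.99 and 1.11 in mussel 3.

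For Myt01-003F09, arrays A and B read -0.73 and 0.83 in mussel 2 and -0.35 and 0.84 in mussel 3 at 100 nM. Its means near 0 there are thus averages of opposite readings. The -0.73 came from the array with the highest pool median (2787.5), where the pool background at this probe was 2247, against a median of 254.5 over the 18 arrays. At 200 nM both arrays were below 0 in all 3 mussels, from -0.18 to -0.81. For Myt01-011B06, the positive values at 50 nM came from arrays A, at 0.83, 0.49 and 0.28, where arrays B read -0.0017, -0.048 and 0.019. Its high reading in mussel 3 at 100 nM was 0.66 on array A and 1.79 on array B. Myt01-011H08 read 1.42 and 1.17 in the same mussel, close to equal.

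**Figure D3:**
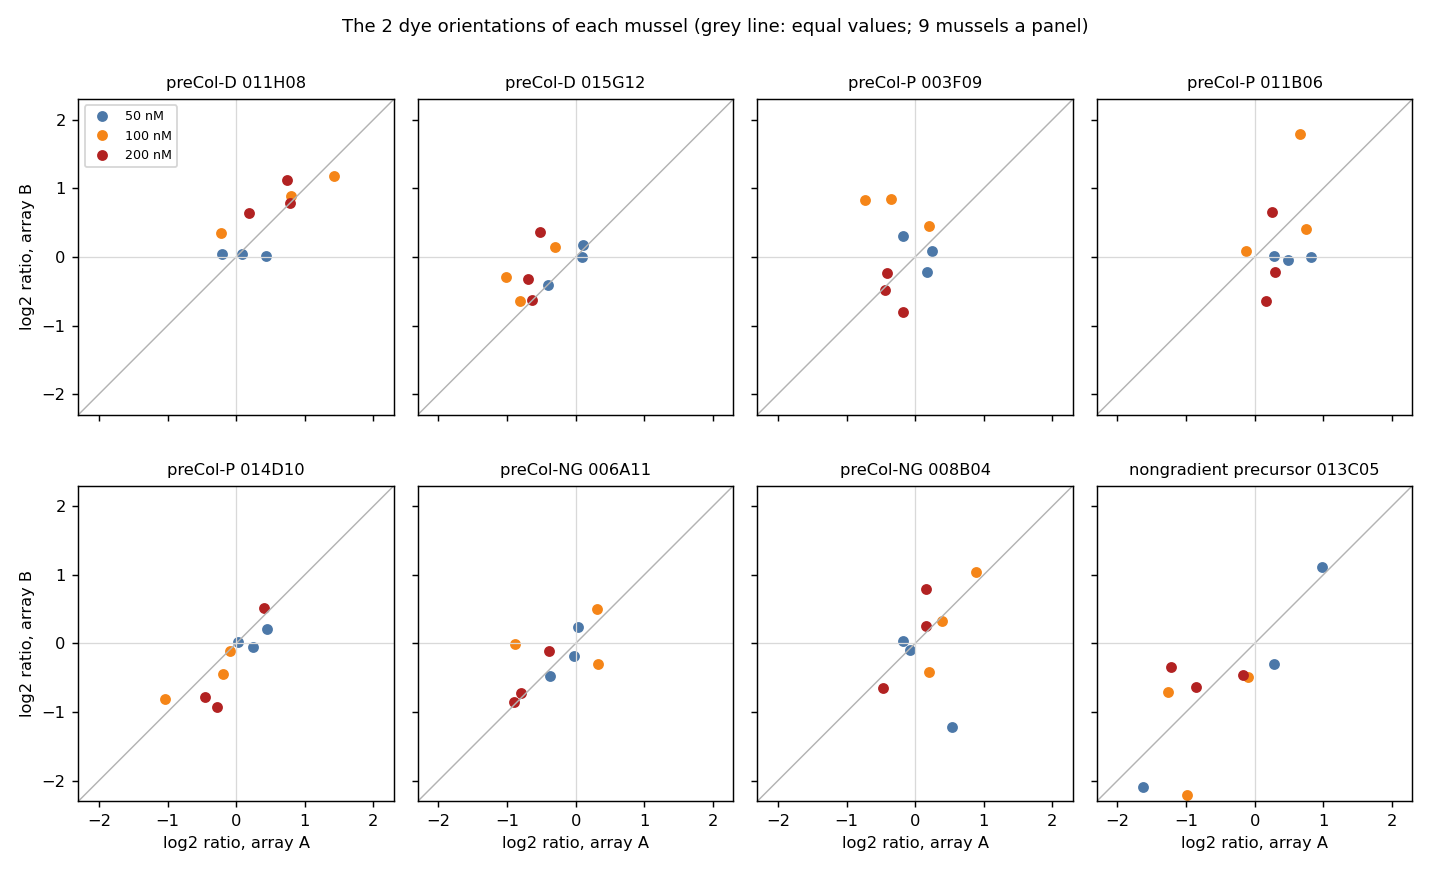
log2 ratio on array B against array A for the 9 mussels, 1 panel for each byssal probe, coloured by dose, with the line of equal values. Points follow the line for Myt01-014D10 (r = 0.85) and Myt01-011H08 (r = 0.80), and not for Myt01-003F09 (r = -0.18).

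One probe of each kind varied together between mussels. Over the 9 mussels, Myt01-008B04 (preCol-NG) and Myt01-011H08 (preCol-D) had a Pearson r of 0.81 and a Spearman rho of 0.65, Myt01-008B04 and Myt01-011B06 (preCol-P) an r of 0.80 and a rho of 0.65, and Myt01-011B06 and Myt01-011H08 an r of 0.68 and a rho of 0.63. All 3 were highest in mussel 3 of 100 nM (1.30, 1.22 and 0.97 for D, P and NG), and all were near 0 in mussel 1 of that dose (0.066, -0.021 and -0.11). At 200 nM mussel 1 was lowest in each. These are the 3 pairs of 28 with an r above 0.6, 10.7% of the byssal pairs, where 5.48% of all probe pairs reach it. The 3 pairs join the same 3 probes, and the study listed each of them at 100 nM, where their highest values lie. Nothing is therefore read from the one share against the other. All points share the pool and each mussel's pair of arrays, and the 3 probes were singled out after their values were seen, so the correlations are descriptions with no test.

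The order of mussels within a dose carried the relation. With each dose's mean removed, the 3 correlations were 0.84, 0.81 and 0.97, in the order above. Leaving out 1 mussel at a time gave 0.67 to 0.91, 0.54 to 0.94 and 0.38 to 0.77. Without the 2 mussels farthest from the median of the first probe named in each pair, r was 0.59, 0.84 and 0.50. The mean at 100 nM of all 3 rested on mussel 3: without it the mean was 0.45 in place of 0.73 for Myt01-011H08, 0.28 in place of 0.59 for Myt01-011B06 and 0.12 in place of 0.40 for Myt01-008B04.

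**Figure D4:**
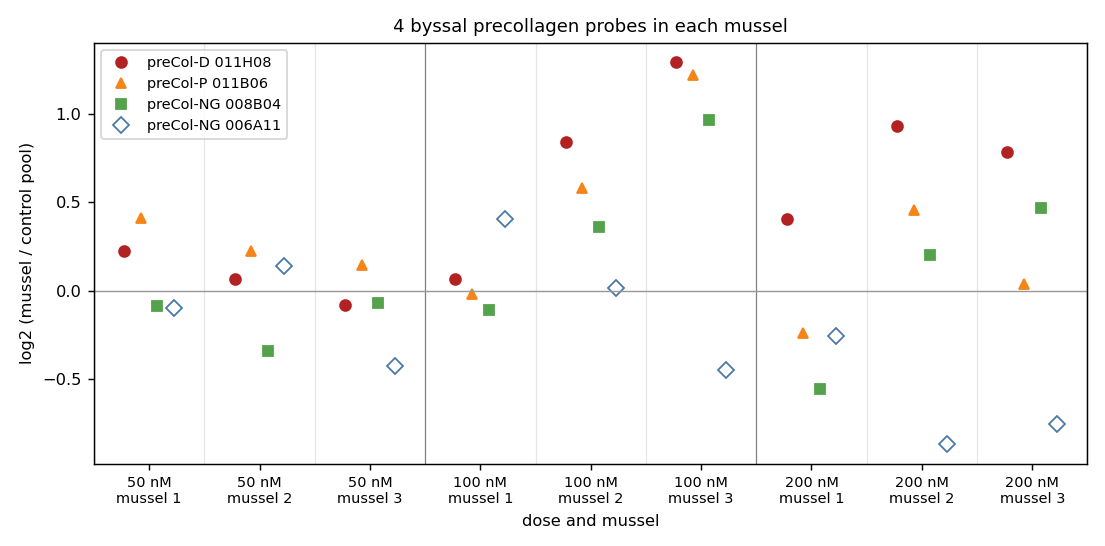
log2 ratio to the control pool of 4 byssal probes in each of the 9 mussels (3 at each of 50, 100 and 200 nM). The preCol-D, preCol-P and preCol-NG probes drawn with filled symbols were all highest in mussel 3 of 100 nM (1.30, 1.22 and 0.97), where the second preCol-NG probe, Myt01-006A11 (open diamonds), read -0.45.

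The bright preCol-NG probe Myt01-006A11 had negative correlations with these 3. Its r was -0.43 with Myt01-008B04, -0.55 with Myt01-011H08 and -0.19 with Myt01-011B06, and in the deposited ratios -0.11, -0.49 and -0.34. With dose means removed these became -0.90, -0.77 and -0.80. Leaving out 1 mussel at a time gave -0.51 to -0.34, -0.71 to -0.46 and -0.34 to -0.016. Without its saturated spots, which left 8 mussels, r was -0.51, -0.64 and -0.29, and with dose means removed -0.82, -0.78 and -0.75. It was highest in mussel 1 of 100 nM (0.40), where the other 3 were near 0, and low in mussel 3 (-0.45), where they were highest. Of these readings, 2 of 4 spots were saturated in mussel 1 and 0 of 4 in mussel 3. The probes of one name had correlations of either sign. The preCol-D pair had an r of -0.14, the preCol-NG pair -0.43, and the 3 preCol-P pairs 0.44, -0.10 and -0.14. With dose means removed the preCol-D pair turned to 0.42 and the preCol-P pair at 0.44 fell to -0.0062, without 50 nM mussel 3 the preCol-D pair was 0.062, and in the deposited ratios the preCol-NG pair was -0.11. Over all 28 pairs the median r was -0.10 with 15 pairs below 0, and over all probe pairs it was -0.0010. Another 2 pairs came close to 0.6: Myt01-003F09 with Myt01-006A11 (0.59) and Myt01-013C05 with Myt01-015G12 (0.59). The first was 0.063 with no background subtraction and -0.23 with dose means removed, and the second 0.46 and 0.52.

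**Figure D5:**
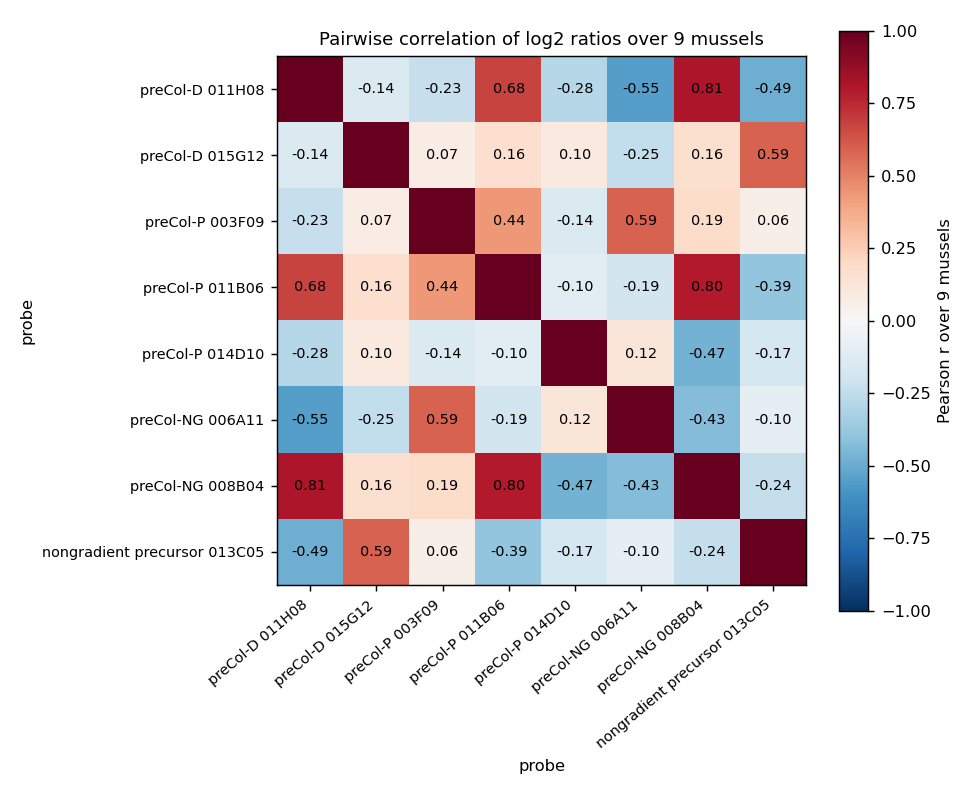
Pearson r of the log2 ratios of each pair of byssal probes over 9 mussels, on a colour scale from -1 to 1, with each r printed. Myt01-008B04, Myt01-011B06 and Myt01-011H08 form the group of positive pairs (0.68 to 0.81), and the preCol-D pair (-0.14, 0.42 with dose means removed) and preCol-NG pair (-0.43, -0.11 in the deposited ratios) are negative here.

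The probes whose profile was most like each precollagen were looked up over all 1920 IDs by Pearson r over the 9 mussels, 3 for each. They are the highest of 1919 correlations over few mussels, so a high r was largely fixed by the search. Nothing is read from its size. Only for Myt01-011H08 was the closest probe another precollagen, Myt01-008B04, followed by Myt01-016H09, a sequence without similarity (0.75). For Myt01-008B04 itself Myt01-011H08 ranked 6th and Myt01-011B06 9th of 1919, behind Myt01-004C03 (0.88), Myt01-004F12 (0.83) and Myt01-011F05 (0.82). Myt01-011B06 was closest to Myt01-010D06 (0.96), Myt01-006G07 (0.92) and Myt01-015H06 (0.87). Neighbours of Myt01-011H08 and Myt01-008B04 shared Myt01-004F12, at 0.74 and 0.83.

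Myt01-006A11 was closest to Myt01-004D10, described as an exosome component 2-like protein of the RNA decay machinery (0.92), Myt01-003D09 (0.89) and Myt01-019B01 (0.88). Myt01-014D10 was closest to Myt01-014G05, a C1q domain protein named MgC1q98, from a family of recognition proteins (0.93), Myt01-019G02 (0.86) and Myt01-015H02 (0.85). Myt01-003F09 was closest to Myt01-006G02 (0.92), Myt01-002B11 (0.91) and Myt01-006F01 (0.89). Myt01-013C05 was closest to Myt01-010H04 (0.89), Myt01-014D06 (0.87) and Myt01-013D05 (0.86), and Myt01-015G12 to Myt01-011B05 (0.93), Myt01-011B11 (0.86) and Myt01-015H05 (0.85). Of the 24 neighbours, 18 have no description here, 3 are without similarity to known sequences and 1 is a byssal probe. In the deposited processed ratios the same 24 correlations ranged from 0.41 to 0.94.

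With the foot markers the precollagens had no common relation. The polyphenolic adhesive protein probe Myt01-007H03 had an r of 0.77 with Myt01-015G12, 0.66 with Myt01-013C05 and 0.51 with Myt01-003F09, and between -0.31 and 0.24 with the other 5. Myt01-007H03 and the probes of these higher r were all listed by the study at 200 nM, with means below the pool. The values that chose them thus enter these r, and nothing is read from their size. Myt01-006A11, also listed there and below the pool, had an r of 0.11. For the foot markers, r with dose means removed was not computed. Foot protein 3 (Myt01-018B12) had an r between -0.46 and 0.27 with the 8. For the group of Myt01-008B04, Myt01-011B06 and Myt01-011H08, r was 0.058, 0.24 and -0.31 with Myt01-007H03 and 0.25, 0.27 and 0.12 with Myt01-018B12.

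Other matrix and secretory transcripts were read from lists set by the words of the probe descriptions. The lists hold only probes that the study had itself selected on these mussels at 1 dose or more, so their direction is not independent evidence. The probes named from them below were listed at 200 nM, so a limma call on them there tests again the values that chose them. Such calls are given as a description, and nothing is read from them. The share called over all probes at 200 nM was 2.03%, 0.885% higher and 1.15% lower, and nothing is read from the lists' counts against it. Of 5 other collagens, 0 passed at any dose, with medians of 0.069, -0.30 and -0.51 at the 3 doses in rising order. The collagen pro alpha-chain probe stood at -0.16, -0.97 and -0.76 at 200 nM, while the type IV collagen probe Myt01-003G10 stood at 0.32, 0.19 and 0.64. Type XII collagen (Myt01-010B10) spread widely at that dose, at -3.08, 0.11 and -1.07. Of 6 other adhesion and matrix probes, 1 was called at 200 nM, lower: Myt01-003H01, described as calmodulin, a calcium-binding protein, at -0.84 ± 0.35 (SD, n = 3). Their medians were 0.0063, -0.35 and -0.52.

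Of 6 probes for folding and secretion of collagen, which include prolyl isomerases and the Sec61 and SEC63 parts of the translocation channel, 1 was called at 200 nM, higher. This was the FK506-binding protein Myt01-012A04, a prolyl isomerase, at 1.12, 1.07 and 1.00 (mean 1.06 ± 0.058, SD, n = 3). The medians of the 6 were -0.036, -0.025 and 0.31. Marker lists of other cell types gave 0 calls at 50 and 100 nM. At 200 nM 0 probes were called of 5 for haemocytes, 4 for muscle, 5 for digestive gland and 9 for ciliated epithelium. Their medians were -0.55, -0.21, 0.44 and -0.60. Of 2 gonad probes 1 was called lower, the zona pellucida domain protein Myt01-016A08 (-0.71 ± 0.13, SD, n = 3). The other, the testis-specific kinase Myt01-001G09, lay above the pool (0.91, 0.58 and 0.42), and the gonad median was -0.036. The haemocyte mean was below 0 in all 3 mussels of 200 nM (-0.64 to -0.49) and the ciliated epithelium mean likewise (-0.67 to -0.35). The part of these tissues in the precollagen values was not tested.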

How the data were processed

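The scanner files hold spot and background intensity for each channel, which the authors read with ScanArray Express; a check on the 1 file that also lists ratios showed that the deposited intensity values precede background subtraction. The deposited table holds log2 ratios of mussel over pool which the authors had scaled to total intensity and corrected by LOWESS, and was used as an alternative. Its scale was taken from the methods, and its column medians are -0.0135 to 0.0345.

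Background was corrected by normexp (offset 50), and log2 ratios were normalized within arrays by loess (span 0.3, 4 iterations), turned to mussel over pool, and averaged over the 2 spots and then arrays A and B. limma 3.58.1 (R 4.3.3, statmod 1.5.0) fitted 1 mean per dose to 9 mussels, with Benjamini-Hochberg adjustment over 1920 probes. Tables and plots used Python 3.11.15. The fit was tested on simulated data. The number of arrays limits the precision.

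The members and the 9 lists (43 probes), and the alternatives except those for saturated spots, were chosen with earlier results of these data known. The lists cover other collagens, other adhesion and matrix, collagen folding and secretion, foot, muscle, haemocytes, digestive gland, gonad and ciliated epithelium. Probes named are the 8 members, probes of the lists, and for each member the 3 probes of highest r. Descriptions come from the study's probe tables, from which no value was used.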

Additional observations from a re-analysis of the deposited data

Results flagged for a closer look

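In 2 preCol-P probes every mussel of one dose lay on one side of 0 and every mussel of another dose on the other side. Myt01-003F09 was above the pool in 3 of 3 mussels at 100 nM (0.33, 0.047 and 0.25) and below it in 3 of 3 at 200 nM (-0.46, -0.32 and -0.49), a difference of -0.63. Myt01-014D10 was above it in 3 of 3 at 50 nM (0.32, 0.095 and 0.024) and below it in 3 of 3 at 100 nM (-0.92, -0.10 and -0.32), a difference of -0.60. Both pairs include a dose at which the study listed the probe (both doses for Myt01-014D10), so the differences were not tested. The share of all probes that changed side in this way was not counted. Under the wider condition of no overlap it was 14.2% for 200 against 100 nM and 8.23% for 100 against 50 nM. The 2 cases are thus a description only. For Myt01-003F09, array A alone gave a mean of -0.29 at 100 nM, no background subtraction gave 0.023, and in the deposited ratios the 3 mussels of that dose read 0.20, 0.091 and -0.020, so not all lay above the pool. For Myt01-014D10, the 0.024 at 50 nM belongs to mussel 3, whose direction is not settled, and with its sign turned it lies below the pool. Mussel 2 of that dose read 0.24 on array A and -0.055 on array B. In the deposited ratios the 3 mussels read 0.37, 0.17 and 0.059.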

How the results depend on the processing

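Of the 16 byssal tests at unlisted doses or dose pairs, 0 were called under any alternative, with a lowest adjusted p of 0.24 over 360 refits (Myt01-014D10 at 200 nM without mussel 1 of that dose). The study had passed over these combinations in the same mussels, so this is no sign of stability. Their signs were less firm, and 2 of the 16 kept one sign throughout. The means at the 12 listed combinations kept their sign in all 253 refits, which does not bear on the selection that chose them. At listed and unlisted doses alike, many refits could not change a mean, such as leaving out a mussel of another dose or fitting each dose alone. The number of refits is therefore no measure of stability. Several sizes moved. With no background subtraction Myt01-003F09 at 200 nM went from -0.43 to -0.16 (-0.25 with plain subtraction and -0.28 in the deposited ratios), Myt01-013C05 from -0.96 to -0.54 at 100 nM and from -0.62 to -0.28 at 200 nM, and Myt01-015G12 from -0.49 to -0.19 and from -0.41 to -0.23. Arrays B alone gave -0.26 and -0.19 for Myt01-015G12 at these doses, and arrays A alone -0.62 at 200 nM. Myt01-014D10 at 50 nM went from 0.15 to 0.32 with median centring, 0.24 and 0.058 on arrays A and B alone and 0.059 without mussel 1, and at 100 nM from -0.45 to -0.21 without mussel 1. Without 100 nM mussel 1, Myt01-008B04 and Myt01-011B06 went from 0.40 to 0.66 and from 0.59 to 0.90.

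With 50 nM mussel 3 turned, the means of Myt01-003F09 and Myt01-006A11 at 50 nM became -0.041 and 0.16, and Myt01-006A11 at 100 against 50 nM -0.17. Arrays A alone gave -0.29 for Myt01-003F09 at 100 nM, -0.38 for it at 100 against 50 nM, and 0.093, -0.052 and -0.15 for Myt01-008B04 at 50 nM, at 200 nM and between these doses. Arrays B alone gave 0.066 for Myt01-006A11 at 100 nM and -0.010 and -0.071 for Myt01-011B06 at 50 and 200 nM. Median centring gave 0.12, 0.069 and -0.051 for Myt01-006A11 at 50 nM, at 100 nM and between them, and -0.052 for Myt01-011H08 at 50 nM. No background subtraction gave -0.0083 for Myt01-008B04 at 200 nM. The cause of these changes was not tested.

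Leaving out 1 mussel at a time, the values that changed sign ranged from -0.26 to 0.022 (Myt01-006A11, 50 nM), -0.22 to 0.21 (Myt01-006A11, 100 nM), -0.18 to 0.34 (Myt01-008B04, 200 nM), -0.10 to 0.25 (Myt01-011B06, 200 nM), -0.0057 to 0.15 (Myt01-011H08, 50 nM), -0.93 to 0.52 (Myt01-013C05, 50 nM) and -0.18 to 0.095 (Myt01-015G12, 50 nM). The dose differences ranged from -0.088 to 0.34 (Myt01-006A11, 100 against 50 nM) and -0.0085 to 0.51 (Myt01-008B04, 200 against 50 nM).

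Over all probes, the 39 calls at 200 nM became 61 with no background subtraction, 97 with plain subtraction, 78 with print-tip loess, 20 with median centring, 21 with scaling between arrays, 108 in the deposited ratios, 65 with each dose fitted alone, 160 with 18 arrays and the mussel as a random block, 120 with 50 nM mussel 3 turned, 3 on arrays B alone and 0 on arrays A alone or with the spread of a pool of 5 added to the error. At 100 nM, in place of 0, there were 2 with median centring, 3 in the deposited ratios, 4 with each dose alone, 16 with 18 arrays and 15 with the turned sign, and at 50 nM 5 with the turned sign. The difference between 50 and 200 nM had 6 calls with 18 arrays. Leaving out 1 mussel gave 0 to 97 calls at 200 nM (0 without mussel 1 or mussel 3 of that dose, 97 without 50 nM mussel 3), 0 to 9 at 100 nM and 0 to 2 at 50 nM. The filter on dim probes removed none.

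Replicate numbers mark different mussels and did not pair the samples: same-numbered mussels of different doses correlated at -0.10 to 0.15 after removal of dose means. The replicate block gave 2 calls at 100 nM and 16 at 200 nM, and 0 byssal calls.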
